A study of Mus musculus with 9 samples.

Results

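Crystallins are the proteins that give the eye lens its transparency and refractive power, and several are also made in the retina. The 10 crystallins described here are Cryaa, Cryab, Cryba1, Cryba2, Cryba4, Crybb1, Crybb2, Crybb3, Crygs and Crygb, out of 25239 gene names listed in each library. They were taken by symbol and chosen by their measured TPM in these libraries, where some vary together and some stay steady. Their levels and correlations are therefore a description and carry no test of their own. All 10 had a mean level of at least 1 transcript per 1000000 (TPM), the limit passed by 15198 genes. TPM is a share of a library's transcripts corrected for transcript length, so levels can be compared between genes.

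Bulk RNA-Seq was performed on whole retinas from C57BL/6J mice at postnatal day 42, with both retinas of a mouse in 1 library and 3 mice in each of 3 genotypes. The wild-type group (+/+) carried no inserted allele. The heterozygous group (Rbpms-CreERT2/+, written Cre/+) and the homozygous group (Rbpms-CreERT2/CreERT2, written Cre/Cre) carried 1 and 2 copies of a knock-in allele in which P2A-CreERT2, a tamoxifen-inducible Cre recombinase, extends the reading frame of Rbpms at its end. Rbpms encodes an RNA-binding protein that marks retinal ganglion cells. The Cre is therefore made wherever Rbpms is transcribed, and no tamoxifen is stated for these animals. In such bulk samples, fewer cells of a type and less RNA per cell cannot be told apart.

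The α-crystallins are small heat shock proteins, chaperones that hold unfolding proteins in solution. The β- and γ-crystallins share a Greek key fold and pack densely in lens fibre cells, where the γA to γF group is a set of closely related genes on 1 chromosome. In the retina, α- and β-crystallins are known from neurons and Müller glia and respond to injury, and αB-crystallin is also made in many tissues outside the eye.

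Upstream sequences are shown because the crystallins fell into groups by how their levels varied together between libraries. The letters before their starts can be read beside those groups. The 120 bases before the gene start are given 5′ to 3′ on the coding strand, from RefSeq promoters on GRCm38.p6, the assembly on which mm10 is built. RefSeq held such an entry for 9 of the 10 crystallins, all but Cryab, and its gene start was the one in the deposited tables for 9 of 9. Capitals mark TATAAA or TATATA within 60 bases of the start, TGCTGA on either strand, and TTTGTG. The first 5 are Cryaa, 3 β-crystallins and Crygs, which encodes γS-crystallin.
Cryaa (chr17:31677811-31677930, + strand): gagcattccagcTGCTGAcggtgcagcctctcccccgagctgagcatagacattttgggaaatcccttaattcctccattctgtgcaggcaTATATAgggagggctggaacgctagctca
Cryba1 (chr11:77725294-77725413, - strand): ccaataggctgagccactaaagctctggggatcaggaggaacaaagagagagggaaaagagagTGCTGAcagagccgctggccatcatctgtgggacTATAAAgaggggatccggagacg
Cryba4 (chr5:112252519-112252638, - strand): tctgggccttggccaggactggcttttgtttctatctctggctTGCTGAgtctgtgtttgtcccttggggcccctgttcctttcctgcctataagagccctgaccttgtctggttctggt
Crybb1 (chr5:112255700-112255819, + strand): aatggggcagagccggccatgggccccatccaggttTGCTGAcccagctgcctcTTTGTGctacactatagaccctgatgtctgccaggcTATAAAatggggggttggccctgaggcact
Crygs (chr16:22811411-22811530, - strand): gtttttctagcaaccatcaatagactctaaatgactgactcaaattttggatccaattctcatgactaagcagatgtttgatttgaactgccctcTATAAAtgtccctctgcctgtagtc

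TGCTGA is the core of the half-site bound by large Maf proteins, transcription factors of lens fibre cells. It lay within 250 bases upstream, on either strand, in 7 of 8 genes of the group made of Cryaa, the β-crystallins and Crygs, against 16.1% of all 32851 promoters, and the longer TGCTGAC, which contains it, in 4 of 8, against 3.81%. Crybb2 was the gene without TGCTGA. In Crygs it lies further upstream than the stretch shown. The 120 bases of Cryba2 and Crybb2, not printed here, held none of the marked motifs. In the γA to γF group TGCTGA was in 2 of 6 genes, Cryga and Crygc, and TGCTGAC in 1 of 6, Cryga. The next 4 sequences belong to the γA to γF group.
Crygb (chr1:65082291-65082410, - strand): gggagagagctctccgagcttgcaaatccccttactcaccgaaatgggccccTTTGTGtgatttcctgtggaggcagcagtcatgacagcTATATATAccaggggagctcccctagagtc
Crygc (chr1:65073533-65073652, - strand): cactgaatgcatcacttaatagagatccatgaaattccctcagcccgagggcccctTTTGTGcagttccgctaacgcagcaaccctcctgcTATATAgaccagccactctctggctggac
Crygd (chr1:65063441-65063560, - strand): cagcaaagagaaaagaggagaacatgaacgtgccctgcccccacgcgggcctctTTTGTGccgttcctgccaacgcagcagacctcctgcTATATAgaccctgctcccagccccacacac
Crygf (chr1:65926402-65926521, + strand): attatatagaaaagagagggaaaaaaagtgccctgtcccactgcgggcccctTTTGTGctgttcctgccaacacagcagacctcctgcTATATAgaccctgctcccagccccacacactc

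All 6 genes of the γA to γF group held TATATA within 60 bases and TTTGTG within 120 bases of the start on the coding strand. These genes are closely related, so they are not 6 independent cases beside the shares of all promoters. TATATA was in 1.56% of all promoters and, among the other 8 crystallins, in Cryaa. Crygn, a crystallin gene in neither group, also held TATATA, 30 bases before its start. TTTGTG was in 3.67% of all promoters and in Crybb1. The paired heat shock half-sites GAANNTTC, searched over 250 bases, were in 0 of 9 crystallins and in 6.69% of all promoters. Cryab, without an entry, was not searched, and so few genes cannot show a lack of this motif. The motifs were picked with the sequences and levels in view, and a match is a run of letters, not a binding site.

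Aligned bases ranged from 4.05 to 4.65 gigabases per library. Rbpms, the targeted gene, followed the labels at 38.4 to 43.4 TPM in +/+ mice, 31.3 to 33.1 with 1 allele and 19.1 to 24.2 with 2. In Cre/Cre replicate 1 the ribosomal RNA precursor Rn45s took 9.21% of all TPM, against 0.0827% to 0.336% elsewhere. Xist, the RNA of the inactive X chromosome, was at 516 to 585 TPM in 6 libraries and at 2.08 to 3.16 in Cre/+ replicate 3 and Cre/Cre replicates 1 and 3. Cryaa was at 6.37 to 480.5 TPM in the 6 libraries and at 28.2 to 109.9 in the other 3. The label of retina was checked against photoreceptor and Müller glia markers, which were high and steady. The summed TPM of 10 photoreceptor genes differed by at most 1.20-fold between libraries, and that of 8 Müller glia genes by at most 1.22-fold.

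Cryaa, encoding αA-crystallin, was the crystallin with the highest mean level, 110.5 ± 142.3 TPM (SD, n = 9 libraries). It was at 79.3, 95.7 and 68.3 TPM in the +/+ replicates, 59.8, 6.37 and 66.4 in Cre/+ and 109.9, 480.5 and 28.2 in Cre/Cre. Cre/Cre replicate 2 was far above and Cre/+ replicate 2 far below the other 7 libraries, which lay between 28.2 and 109.9. Against the median of those 7, Cre/Cre replicate 2 was 7.04-fold higher and Cre/+ replicate 2 was at 9.33%.

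The same 2 libraries stood at the ends for the β-crystallins, the polypeptides that form dimers and larger assemblies in the lens. Cryba1, encoding βA3/A1-crystallin, was at 42.8, 48.1 and 29.4 TPM in the +/+ mice, 29.8, 1.22 and 35.3 in Cre/+ and 46.8, 237.7 and 22.2 in Cre/Cre. Its highest library was 194-fold above its lowest, the widest range of the 10 genes. Crybb2, encoding the abundant βB2-crystallin, was at 20.4, 36.2 and 28.2 TPM in the +/+ mice, 23.9, 3.29 and 25.1 in Cre/+ and 31.4, 148.1 and 13.5 in Cre/Cre. Cryba4, an acidic β-crystallin gene, was at 8.65, 10.2 and 8.37 TPM in the +/+ mice, 10.5, 0.336 and 12.2 in Cre/+ and 14.6, 47.0 and 2.75 in Cre/Cre. Its low value rests on few reads, as its mean read coverage there was 0.404 per base. The remaining 3 β-crystallins, Cryba2, Crybb1 and Crybb3, spanned 2.48 to 64.2, 1.83 to 47.8 and 2.52 to 59.0 TPM, each lowest in Cre/+ replicate 2 and highest in Cre/Cre replicate 2.

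Crygs encodes γS-crystallin, the γ-crystallin whose gene lies apart from the others and is made in the mature lens. It was at 29.9, 30.2 and 23.0 TPM in the +/+ mice, 37.2, 1.61 and 29.7 in Cre/+ and 39.99, 177.8 and 11.5 in Cre/Cre, and it followed Cryaa rather than the γA to γF set. Crygb, encoding γB-crystallin, was at 41.6, 22.1 and 42.2 TPM in the +/+ mice, 26.7, 1.99 and 22.4 in Cre/+ and 8.56, 77.4 and 9.49 in Cre/Cre. In Cre/Cre replicate 1 its level was the lowest of the 7 intermediate libraries, where Cryaa was the highest.

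Cryab, encoding αB-crystallin, was the steadiest of the 10. It was at 88.7, 99.01 and 78.9 TPM in the +/+ mice, 83.9, 62.2 and 79.5 in Cre/+ and 83.5, 214.4 and 56.4 in Cre/Cre. Its highest library was 3.80-fold above its lowest, against 23.4-fold to 194-fold for the other 9. It was also the single crystallin whose lowest library was Cre/Cre replicate 3. In Cre/Cre replicate 2 it was 2.57-fold above the median of the 7 intermediate libraries, and in Cre/+ replicate 2 it was at 74.5% of it.

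**Figure D1:**
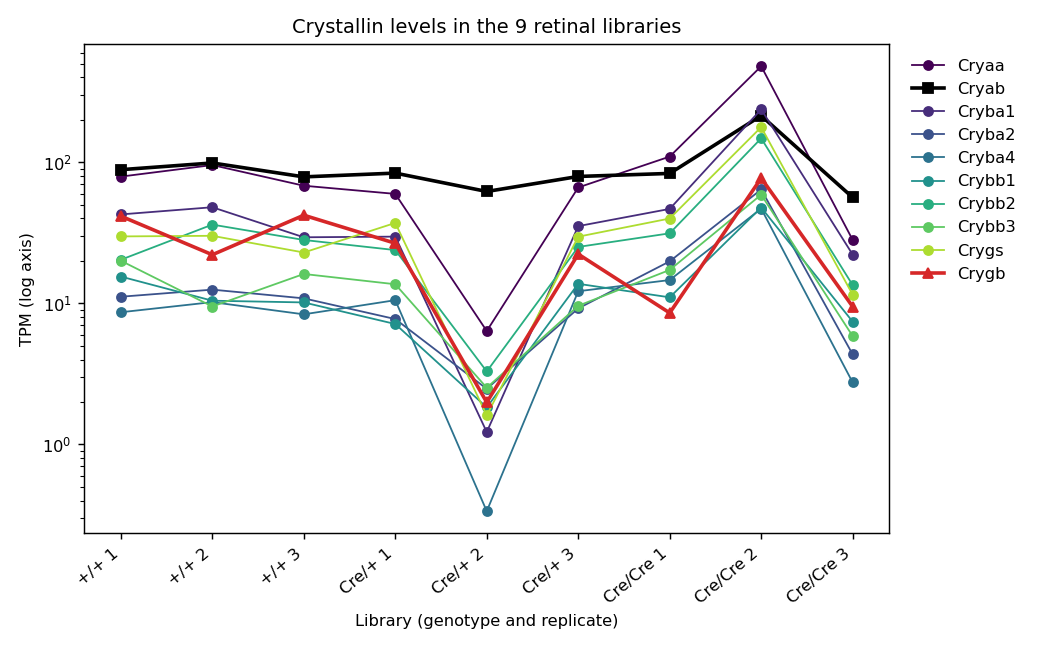
TPM on a log axis for each of the 10 crystallins (lines) in the 9 libraries, ordered by genotype and replicate. All 10 were highest in Cre/Cre replicate 2, 9 were lowest in Cre/+ replicate 2, and Cryab (black squares) ranged only from 56.4 to 214.4.

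Without Cre/+ replicate 2 and Cre/Cre replicate 2, the ratio of highest to lowest library was 1.76 for Cryab and reached 5.32 for Cryba4. Over all 9 libraries, 9 of the 10 lay in the top 1% of the 15198 genes by the SD of log2(TPM + 1), with SDs from 1.08 to 1.75, against a median of 0.14 for all genes. Cryab, with an SD of 0.54, was at percentile 97.0. Over the other 7 libraries 1 of the 10, Crygb, was still in the top 1%, and the percentiles ran from 84.3 to 99.1.

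The order of the mean levels was Cryaa, Cryab, Cryba1, Crygs, Crybb2, Crygb, Crybb3, Cryba2, Crybb1 and Cryba4, from 110.5 down to 12.7 TPM. Every step between neighbours was smaller than the larger of their SDs over the 9 libraries. These SDs hold differences between libraries that the genes share, so they do not show whether 2 genes kept their order within libraries. Cryab was above Cryba1 in all libraries except Cre/Cre replicate 2, where they were at 214.4 and 237.7 TPM. Cryab was above Cryaa in all libraries except Cre/Cre replicates 1 and 2.

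Over all 9 libraries, the proportions within a library were steadier than the levels. Cryba1 was at 42.6% to 78.7% of Cryaa outside Cre/+ replicate 2 and at 19.2% in it. Crybb2 was at 25.7% to 51.7% of Cryaa over all 9 libraries, a range of 2.01-fold beside 44.98-fold for its TPM. For the 7 genes compared with Cryaa, the ratio varied by 2.01-fold to 4.10-fold. Cryab did not keep its proportion, since it made up 74.2% of the summed TPM of the 10 crystallins in Cre/+ replicate 2 and 13.8% in Cre/Cre replicate 2.

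Correlations of log2(TPM + 1) over the 9 libraries put the crystallins into groups. They are given without p-values, since libraries are shared by all genes and the genes were chosen for this. Among Cryaa, the 6 β-crystallins and Crygs, the median Pearson r of 28 pairs was 0.95 and the median Spearman rho 0.79. The median r was 0.74 over the 7 libraries left when both extreme ones were set aside, so part of the relation rests on them. Over 7 libraries Crybb1 was the gene least closely tied to Cryaa, at r = 0.56 against 0.95 over 9. Cryba2 kept r = 0.96 in both.

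Cryab correlated with this group at a median r of 0.85 over 9 libraries and 0.82 over 7, so by r it moved with the group but over a narrower range. Its median rho with the group was 0.74 over 9 libraries and 0.48 over 7, where the median rho within the group was 0.55. Crygb correlated with the group at a median r of 0.83 over 9 libraries and 0.21 over 7.

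The γA to γF group was read from Crygb and the 5 other genes of this set, Cryga, Crygc, Crygd, Cryge and Crygf. Among these 6 the median r of 15 pairs was 0.85 over 9 libraries and 0.90 over 7, with a median rho of 0.92 and 0.93. With Cryaa, the β-crystallins and Crygs, their median r was 0.72 over 9 libraries and 0.14 over 7. Their coding sequences are alike, with 79.2% to 98.1% of aligned bases equal and Cryge and Crygf the closest pair, so reads may have been divided among them and their single levels are uncertain. Among the other group of 8 genes this identity was 46.2% to 69.0%.

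**Figure D2:**
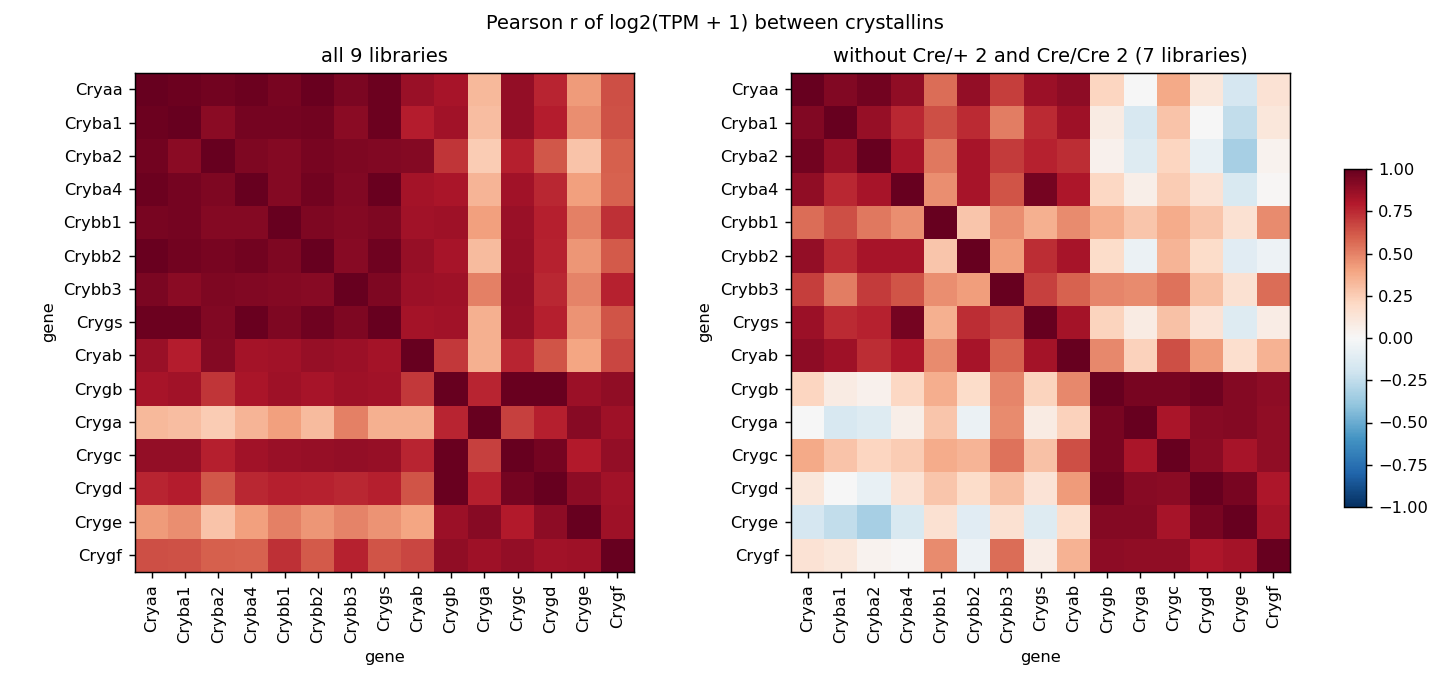
Pearson r of log2(TPM + 1) for each pair of 15 crystallins, as colour from -1 to 1, over all 9 libraries on the left and over 7 on the right. The block of Cryaa, β-crystallins and Crygs and the block of γA to γF stay apart on the right, where their median r was 0.14.

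Summing each group lessens that uncertainty, since reads divided within the group stay in the sum. The summed γA to γF level was at 148.1, 80.7 and 154.4 TPM in the +/+ mice, 91.3, 8.46 and 74.5 in Cre/+ and 24.3, 221.9 and 33.0 in Cre/Cre. The sum of Cryaa, the β-crystallins and Crygs was at 227.6, 252.8 and 194.4 TPM in the +/+ mice, 189.7, 19.7 and 201.4 in Cre/+ and 290.9, 1262 and 95.8 in Cre/Cre. Cre/Cre replicate 1 parted the groups, being second highest by the latter sum and second lowest by the γA to γF sum. The γA to γF sum was 8.35% of the other sum in that library, 17.6% in Cre/Cre replicate 2 and 31.9% to 79.4% in the other 7. The 3 libraries low in Xist had γA to γF sums of 74.5, 24.3 and 33.0 TPM, below 5 of the other 6, which were at 80.7 or more, Cre/+ replicate 2 being the exception. The part of the Xist difference in these sums was not tested. Cryga and Cryge were listed at 0 in Cre/Cre replicate 1. This is also the library with the raised Rn45s share, and the part of Rn45s in the difference was not tested.

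**Figure D3:**
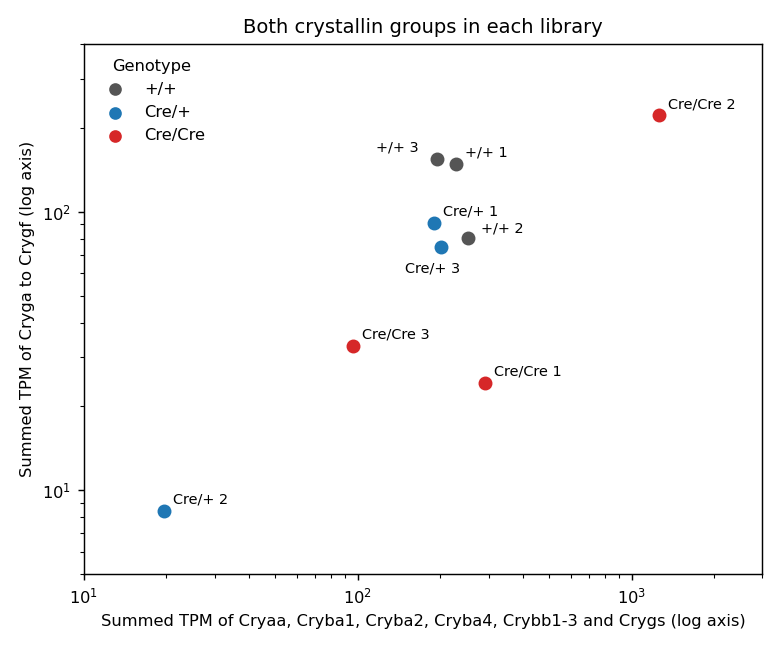
Summed TPM of the γA to γF crystallins against that of Cryaa, the β-crystallins and Crygs, both on log axes, with 1 point per library coloured by genotype. Cre/Cre replicate 1 lies low for its place on the horizontal axis, with a γA to γF sum of 24.3 TPM beside 290.9.

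Neighbouring β-crystallin genes correlated below the median of their group, over 9 libraries and over 7. Cryba4 and Crybb1 on chromosome 5 are 3301 bases apart and transcribed away from each other, and their r was 0.92 over 9 libraries and 0.46 over 7. Crybb2 and Crybb3 are 5721 bases apart on the same strand, with r of 0.91 and 0.42. Among the γ-crystallin genes of chromosome 1, Crygc and Crygb are 6689 bases apart, with r of 0.99 and 0.95. For Crygd and Crygc, 8084 bases apart, r was 0.96 and 0.90.

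Genes named crystallin for a lens role in other animals, or for a related fold, varied much less between libraries. Crym, a thyroid hormone-binding protein and ketimine reductase, was at 74.9 to 104.8 TPM, and Cryz, a quinone reductase, at 19.9 to 25.9. The 6 genes of this list that were tested had SDs of log2(TPM + 1) between 0.09 and 0.22. Cryl1, a sugar dehydrogenase, was highest in Cre/Cre replicate 2 at 9.89 TPM and lowest in Cre/Cre replicate 3 at 5.46, as Cryab was. Its r with Cryab was 0.76 over 9 libraries and 0.84 over 7, and with Cryaa 0.61 and 0.72. Crygn, which encodes γN-crystallin, was low throughout, between 0 and 4.73 TPM, with its highest level again in Cre/Cre replicate 2.

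Genes listed for lens, other than crystallins, ran from absent to well expressed. Among the 18 lens genes listed, 7 stayed under 1 TPM in every library, including Foxe3, the lens epithelial transcription factor, which was at 0 throughout. Mip, the lens water channel, was at 1.08 to 4.12 TPM and Bfsp1, a beaded filament protein of lens fibres, at 0.391 to 3.34. Bfsp1 was lowest in Cre/+ replicate 2 and highest in Cre/Cre replicate 2, and its r with Cryaa was 0.88 over 9 libraries and 0.58 over 7. Mip was at 4.12 TPM in Cre/+ replicate 3 and at 4.03 in Cre/Cre replicate 2, its 2 highest libraries. Its r with Cryaa was 0.57 over 9 libraries and -0.06 over 7. Of the 18 genes, 6 were highest in Cre/Cre replicate 2. Lgsn was 1 of these, at 2.94 TPM, with r of 0.52 with Cryaa over 9 libraries and -0.51 over 7. Lim2, a further gene of the list, was at 0 in every Cre/Cre library and in Cre/+ replicate 2, and at 0.189 to 1.2 TPM elsewhere. Grifin, a galectin-related lens protein, was at 9.64 TPM in Cre/Cre replicate 2 and at 0 to 1.52 elsewhere. Its r with Cryaa was 0.86 over 9 libraries and 0.63 over 7. Genes of the list with higher levels, Prox1 at 79.2 to 117.3 TPM, Lenep at 24.2 to 34.8, Caprin2 at 20.5 to 26.4 and Maf at 8.62 to 10.5, had r with Cryaa between -0.66 and 0.25. Whether their RNA came from lens or from retinal cells cannot be told in whole retina, so they do not measure lens RNA. Bfsp2, the partner of Bfsp1 in the beaded filament, was at 0.415 TPM in Cre/+ replicate 2 and at 1.12 to 2.98 elsewhere. It was highest in +/+ replicate 1, and its r with Cryaa was 0.80 over 9 libraries and 0.72 over 7. The sum of all 18 genes was 166.1 to 192.9 TPM in +/+, 185.5 to 197.4 in Cre/+ and 151.0 to 192.0 in Cre/Cre, and Prox1, Lenep and Caprin2 made up most of it. The part of lens RNA in the crystallin levels was not tested.

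Genes listed for other ocular tissues were read in the same way. Optc, which encodes opticin, a protein secreted into the vitreous by the ciliary body, was at 55.7 TPM in Cre/Cre replicate 2 and at 1.34 to 3.27 elsewhere. Zic1, a transcription factor of the same list, was also highest in Cre/Cre replicate 2, at 7.69 TPM, and lowest in Cre/+ replicate 2, at 4.56, over a narrower range. Its r with Cryaa was 0.77 and that of Optc 0.73, and over 7 libraries both were near 0, at -0.02 and -0.01. Tfap2b, at 108.7 to 137.0 TPM, and Wfdc1, at 8.39 to 12.8, had r of -0.39 and -0.33 with Cryaa. Whether the RNA of these 2 genes came from ciliary body or from retinal cells cannot be told in whole retina. The 6 cornea and conjunctiva genes summed to at most 2.62 TPM. The 10 pigment epithelium genes summed to 45.6 TPM in Cre/Cre replicate 2 and 62.6 in Cre/+ replicate 2, inside the range of 22.8 to 97.3 over all libraries. Of these genes 2, Tyrp1 at 2.71 TPM and Pmel at 2.3, were highest in Cre/Cre replicate 2. The median r with Cryaa of the 7 that were tested was 0.00 over 9 libraries and 0.34 over 7, with Dct at 0.10 and 0.88. The 5 blood genes summed to 92.5 to 300.5 TPM, with 237.4 in Cre/Cre replicate 2 and 104.7 in Cre/+ replicate 2. The part of these tissues in the crystallin levels was not tested.

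Heat shock and gliosis genes were read because αB-crystallin is a stress protein known to change with glial reactivity. None of the 10 heat shock genes was highest in Cre/Cre replicate 2, and their median r with Cryaa was -0.17 over 9 libraries and 0.37 over 7. With Cryab it was -0.22 over 9 libraries but 0.56 over 7, where Hspa1a, an inducible chaperone, was at 0.86 and Hspb6 at 0.84. Other genes of the list went the other way over these 7, with Hspb1 at -0.73, Hsph1 at -0.48, Hsp90aa1 at -0.12 and Hspa8 at -0.07. Hspb1 and Hspb6, the small heat shock proteins nearest to αB-crystallin in kind, were at 8.11 to 12.2 and 143.3 to 186.4 TPM. Gfap, the filament protein that reactive glia raise, was at 27.5 to 45.6 TPM, and 35.7 in Cre/Cre replicate 2. For the 8 gliosis genes the median r with Cryab was 0.20 over 9 libraries and 0.62 over 7, where Edn2 (endothelin-2) was at 0.85 and Socs3 at 0.82. Median r with Cryaa was 0.13 over 9 libraries and 0.36 over 7 for the 8 gliosis genes. For the 8 Müller glia genes it was -0.04 and -0.17. Over 7 libraries r with Cryaa was 0.86 for Hspa1b and 0.68 for Socs3, but -0.72 for Hspb1.

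**Figure D4:**
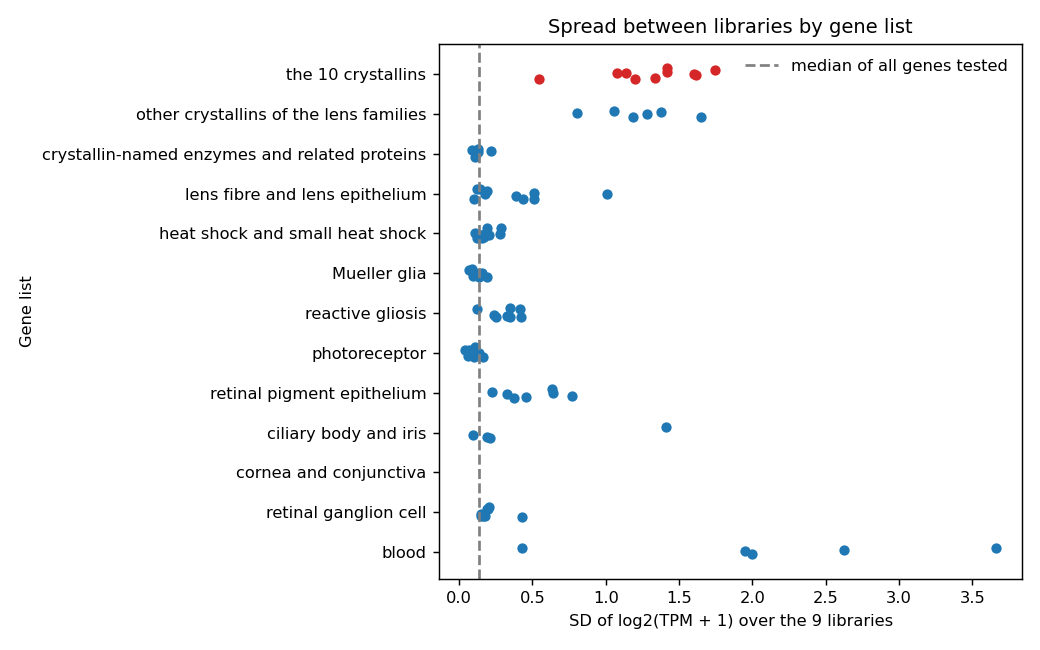
SD of log2(TPM + 1) over the 9 libraries for each tested gene (points) in 13 gene lists, with a dashed line at the median of all genes, 0.14. The crystallins reach from 0.54 to 1.75, while the photoreceptor genes lie between 0.04 and 0.16, and no cornea gene passed the limit on low values.

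In Cre/Cre replicate 2, 18 of the 15198 genes were more than 3-fold above the next highest library, and 7 of these were among the 10 crystallins. The remaining 11, named after their values were seen, were Optc, Mfap4, Fbln1, Grifin, Gpx3, Ltbp2, Penk, Ogn, Fmod, Gja1 and Slc6a13. Several of them encode extracellular matrix proteins, such as Fbln1 (fibulin-1), at 32.8 TPM against 1.02 to 3.54 elsewhere. In Cre/+ replicate 2, 33 genes were under a level of 1 in 3 of the next lowest library, and 7 of these were among the 10. None of the 10 met either limit in any of the other 7 libraries.

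The genes outside the list with the levels most like Cryaa, by Pearson r of log2(TPM + 1) over the 9 libraries, were Dapl1 at 0.95, Mthfd1l at 0.95, Exosc7 at 0.94, Gm12339 at 0.94 and Tom1 at 0.93. They moved over much narrower ranges, with Dapl1 between 34.8 and 66.7 TPM. The genes most like Cryab were Ankrd66 at 0.96, Grifin at 0.96, Gm8234 at 0.95, Gpx3 at 0.93 and Mfap4 at 0.92. All 5 share with Cryab their highest level in Cre/Cre replicate 2. Of the 10 genes nearest to Cryaa, 7 were crystallins of the list, and over 7 libraries 2 were. The median r of the other 9 crystallins with Cryaa was 0.96.

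The study compared genotypes to find changes in the retinal transcriptome caused by the knock-in allele. For the crystallins, no difference between a knock-in genotype and +/+ passed the test, and the knock-in mice of 1 genotype differed widely among themselves. Cryaa was at 81.1 ± 13.8 TPM in the +/+ mice, 44.2 ± 32.9 in Cre/+ and 206.2 ± 241.0 in Cre/Cre (mean ± SD, n = 3 each). Cryab was at 88.9 ± 10.1, 75.2 ± 11.5 and 118.1 ± 84.5 TPM. The Cre/Cre mean of each rests on replicate 2.

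In limma's test on log2(TPM + 1), 0 of the 10 crystallins passed an adjusted p of 0.05 in Cre/+ against +/+, where 0.00658% of all genes were called, and 0 of 10 in Cre/Cre against +/+, where 0.00658% were called too. At an unadjusted p under 0.05 the counts were also 0 and 0, beside 10.7% and 6.97% of all genes. Crygb had the smallest adjusted p by limma among the 10, with 0.664 for Cre/+ and 0.954 for Cre/Cre. These p-values describe genes chosen for their spread between libraries.

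The fold changes were large beside those of other genes but so were their errors. The log2 fold change of Cryaa was -1.39 (SE 1.27) in Cre/+, with a 95% interval from -4.46 to 1.69, and 0.51 (SE 1.27) in Cre/Cre, with an interval from -2.57 to 3.59. For Cryab it was -0.24 (SE 0.47) in Cre/+ and 0.18 (SE 0.47) in Cre/Cre. The median over the 10 crystallins was -0.95 in Cre/+ and 0.50 in Cre/Cre with a median SE of 1.12, while over all genes the medians were 0.00 and -0.02 with a median SE of 0.11. All 10 values were below 0 in Cre/+. In Cre/Cre 9 were above 0 and Crygb was at -0.81. Both comparisons use the same +/+ libraries.

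The directions turned on single libraries. Without Cre/Cre replicate 2 the 9 positive values in Cre/Cre became negative, from -0.52 for Cryaa to -0.24 for Cryba2. Without Cre/+ replicate 2 the median in Cre/+ was -0.25 in place of -0.95, with Cryaa at -0.35, Cryba1 at -0.27, Crybb2 at -0.16 and Crygb at -0.46, and Cryba4 at 0.30 and Crygs at 0.27 turned positive. With Xist as a covariate the median in Cre/Cre was 0.93 in place of 0.50, Cryaa was at 0.97 and Cryab at 0.67, and in Cre/+ Cryab was at -0.0053. In Cre/+, all 3 libraries of Cryaa and of Cryba2 lay below all 3 of +/+, which is 2 of the 10 crystallins, beside 10.3% of all genes, and 0 of 10 were separated upward, beside 11.9%. In Cre/Cre, 0 of the 10 were separated from +/+ downward, beside 8.05% of all genes, and 0 upward, beside 2.7%.

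**Figure D5:**
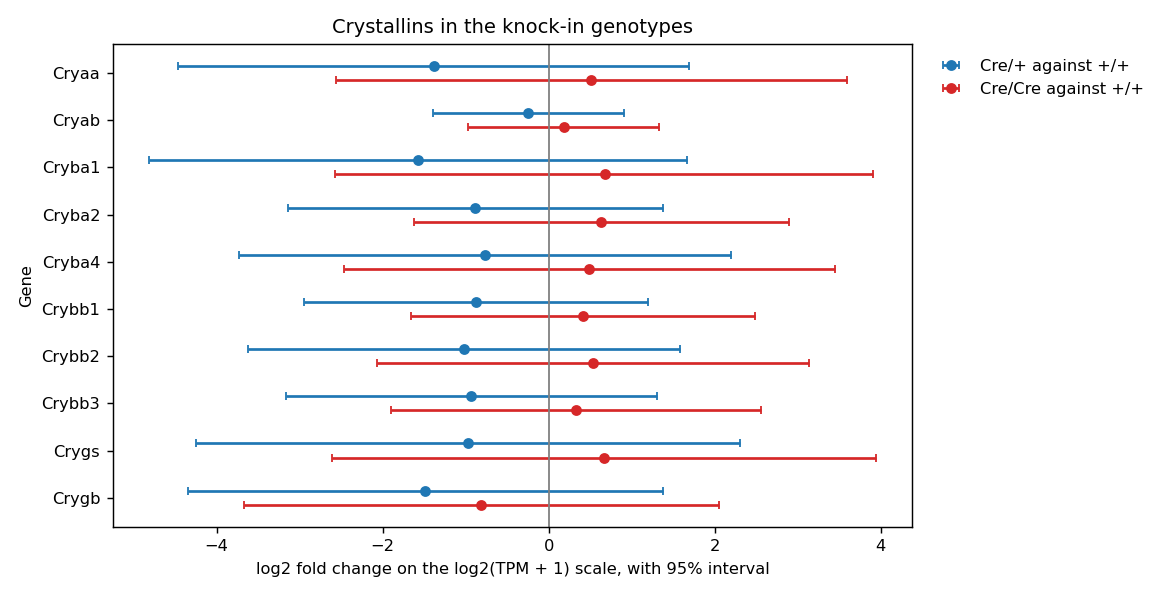
Log2 fold change on the log2(TPM + 1) scale with its 95% interval for each of the 10 crystallins, Cre/+ against +/+ in blue and Cre/Cre against +/+ in red. Every interval spans 0, with medians of -0.95 and 0.50.

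For the other gene lists, the same test called few genes. Among the 6 other crystallins of the lens families 0 passed in either comparison, with median log2 fold changes of -1.33 in Cre/+ and -0.95 in Cre/Cre. Among the lens, heat shock, Müller glia, gliosis, photoreceptor, pigment epithelium, ciliary body and crystallin-named enzyme genes 0 passed as well. Among the 8 ganglion cell genes, Rbpms itself fell by 0.96 on the log2 scale in Cre/Cre, with an adjusted p of 0.000581 by limma. Among the 5 blood genes, Hbb-bt, a β-globin, was called in Cre/+ (limma, adjusted p = 0.00256). Its level was given as 0 for the 3 Cre/+ mice, as was that of its near-identical copy Hbb-bs, and the single levels of such copies are uncertain.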

How the data were processed

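Whole retinas, a pair from each mouse, were sequenced as strand-specific poly(A) libraries with paired reads of 150 bases. The authors used Trimmomatic for trimming, HISAT2 for alignment to mm10 and StringTie for gene levels, and versions and the annotation are not given in the sources used here. In every library the deposited TPM add up to 1000000. The deposited FPKM is scaled to gene length and library depth, and the deposited coverage is the mean read depth over a gene's bases. The tables hold no counts, so the authors' DESeq2 comparison was not repeated and no counting interval is given.

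TPM of equal gene names were summed. limma 3.58.1 in R 4.3.3, with a trended and robust prior, was run on log2(TPM + 1) of the 15198 genes whose TPM averaged 1 or more, all 9 libraries in 1 model with genotype as its term and Benjamini-Hochberg adjustment over all genes. The pseudocount of 1 understates changes of low genes. The script was tested on simulated data. Libraries were grouped by their genotype label, and p-values measure the spread between mice. Genes named are the 10 crystallins, the genes of the lists, the 5 genes most like Cryaa and the 5 most like Cryab, and Rbpms, Rn45s and Xist. The 10 crystallins and the lists were chosen with earlier results of these data known. Coding identity was taken over aligned bases of the longest reading frames of GENCODE M21 transcripts with Biopython 1.88. Alternatives were another pseudocount, no filter, FPKM, median-ratio scaling, Xist as a covariate, a replicate block, only the 2 genotypes compared, Spearman rho, genotype means subtracted and each library left out. Leaving out both extreme libraries was added after the data were seen.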

Additional observations from a re-analysis of the deposited data

Results flagged for a closer look

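Cryab in Cre/Cre replicate 2 stood apart from its other libraries on the log2(TPM + 1) scale, with a gap to the next library of 0.58 of the range over all 9 libraries. Cryba1 in Cre/+ replicate 2 stood apart at the low end, with a gap of 0.501 of its range. Both are given as a description and not as a test, since the genes were chosen by these values and the 9 libraries span 3 genotypes. In the other 8 crystallins the largest gap at either end was 0.391 of the range.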

How the results depend on the processing

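The count of crystallins called was 0 in both comparisons under all 8 alternatives and with each of the 9 libraries left out in turn. Of the single fold changes, those that changed sign did so only without 1 or both extreme libraries. Where 1 library was left out, the values below were the lowest in Cre/Cre, and the highest came without Cre/Cre replicate 3, at 1.51 for Cryaa, 0.59 for Cryab, 1.41 for Cryba1, 1.56 for Cryba2, 1.45 for Cryba4, 0.92 for Crybb1, 1.28 for Crybb2, 1.08 for Crybb3 and 1.59 for Crygs. Without Cre/Cre replicate 2, and equally without both, the log2 fold change in Cre/Cre was -0.52 for Cryaa, -0.36 for Cryab, -0.28 for Cryba1, -0.24 for Cryba2, -0.39 for Cryba4, -0.35 for Crybb1, -0.40 for Crybb2, -0.48 for Crybb3 and -0.33 for Crygs. Without Cre/+ replicate 2, and equally without both, it was 0.30 for Cryba4 and 0.27 for Crygs in Cre/+, whose lowest values with 1 library left out were -1.35 and -1.67. The median r of the other crystallins with Cryaa, 0.96, was 0.80 as Spearman rho and 0.88 without both extreme libraries, and between 0.95 and 0.97 with 1 library left out. Over all genes, 1 was called in each comparison, and 0 to 6 in Cre/+ and 1 to 13 in Cre/Cre under the alternatives. Between genotypes, deviations from the group means correlated at -0.116 to 0.128 for libraries of equal replicate number and at -0.194 to 0.261 for the rest. Such correlations cannot settle whether equal numbers mark mice of 1 litter, which the labels do not say. With a replicate block 0 crystallins were called in each comparison, and Cryaa kept -1.39 and 0.51 with adjusted p of 0.767 and 0.984 by limma. Depth limits the lowest values, such as Cryba4 in Cre/+ replicate 2, and no counts were at hand to bound them.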
